A study of Mus musculus with 23 samples.

Results

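Subclone 24 of the Lewis lung carcinoma (LLC) line was compared with subclones 2, 3 and 6, 3 subclones of the same line chosen by their overall expression, which lay nearest to it although they sit in another block of the deposition. LLC is a transplantable mouse lung tumour line, and all its subclones here were raised from the parental culture by limiting dilution, so that each stands for 1 clone. Cells were kept in DMEM with 10% fetal bovine serum and antibiotics, then spent 24 h in a serum-free expression medium before total RNA was taken and hybridised to Affymetrix arrays. The arrays compared were 3 of subclone 24, 3 of subclone 2, 3 of subclone 3 and 2 of subclone 6, which is 11 of the 23 arrays of the series. The other 12 arrays belong to subclones 18, 19, 23 and 28. No group was treated, and no parental culture was used here as a baseline.

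Levels are log2(intensity + 16), where intensity is the deposited linear value of 1 probe set per gene, the one with the highest mean over the 23 arrays. On this scale the folds of dim genes come out too small. Over 18193 genes, a linear model (limma) gave the difference of subclone 24 from the equally weighted mean of subclones 2, 3 and 6, and from each of them. Genes counted as called had a difference of at least 1 log2 unit with a p under 0.05 after Benjamini-Hochberg adjustment. It held against each subclone if it was called in the same direction against subclone 2, subclone 3 and subclone 6 and if each array of subclone 24 lay beyond all 8 arrays of the others. The 3 comparisons share the arrays of subclone 24, and arrays of a subclone are biological replicates by their titles, so p-values measure the spread between replicates of a clone and not between independent clones.

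The choice of subclones 2, 3 and 6 rested on measured values, so overall distances are a description. The root mean square log2 distance from arrays of subclone 24 averaged 0.342 to those of subclone 6, 0.366 to subclone 2 and 0.386 to subclone 3, then 0.393 to subclone 23, 0.446 to subclone 28, 0.448 to subclone 19 and 0.478 to subclone 18. Arrays of 1 subclone lay 0.191 to 0.242 apart within the 4 subclones compared, and arrays of different members of the trio 2, 3 and 6 averaged 0.332. Subclone 24 averaged 0.367 from the trio over 24 pairs of arrays. The 5th percentile of intensity was 2.28 to 2.39 on the arrays of subclone 24 and 2.45 to 2.76 on the 8 arrays of the trio, while array medians were 41.76 to 43.19 and 40.83 to 44.42. The part of that difference among the dimmest probe sets in the results was not tested.

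Krt8 and Vim were at similar levels in the 4 subclones, but not every keratin gene was. Krt19, a further keratin gene, averaged 5.92 in subclone 24, against 5.31, 6.57 and 7.16 in subclones 2, 3 and 6. Krt8, a keratin of simple epithelia, averaged 11.04 in subclone 24, against 10.84, 11.29 and 11.18 in subclones 2, 3 and 6. Vim, the intermediate filament of mesenchymal cells, averaged 13.74 in subclone 24, against 13.76, 13.74 and 13.69 in subclones 2, 3 and 6. Of 18 leukocyte markers 11 lay below the array median on all 11 arrays. So did 11 of 18 markers of endothelium, fibroblasts and adipocytes and 9 of 16 lung epithelial genes. The share of all genes below it was not counted. An array median covers all probe sets, while the genes tested had a higher median level of 6.9 over all arrays. These counts do not show absence. Among leukocyte markers, Cd14 averaged 8.73 and Cd68 6.50 in subclone 24, above the highest array median of 5.92. Summed leukocyte marker intensity was 1015 to 1039 on arrays of subclone 24 and 1086 to 1474 on arrays of the trio. For the endothelium, fibroblast and adipocyte list the sums were 15746 to 15960 and 12644 to 19459, and for the lung epithelial list 1540 to 1623 and 1502 to 2094. Their part in the results was not tested, and in bulk RNA fewer cells of a kind and less RNA per cell cannot be told apart.

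The 4 genes that mark this comparison encode proteins that act outside the cell. Bmp2 is a bone morphogenetic protein that binds paired receptors and acts through Smad proteins, within reach of antagonists such as gremlin. Il33 is an alarmin of the interleukin-1 family, stored in the nucleus, released from damaged cells and read by a receptor that pairs with Il1rap. Lif is a cytokine that signals through gp130 (Il6st) together with Lifr, and tumour-derived Lif has been studied in mouse models of cachexia. Itih5 is a heavy chain of the inter-alpha-trypsin inhibitor family, whose members bind hyaluronan. These genes were picked for their values in this contrast, so what follows for them is description without a test.

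Il33 stood at 7.45, 7.63 and 7.75 on the arrays of subclone 24. It stood at 11.09, 11.26 and 11.07 in subclone 2, at 10.12, 10.30 and 10.38 in subclone 3 and at 9.96 and 10.03 in subclone 6. All arrays of subclone 24 were thus below all others, and the means differed 11.5-fold, 6.29-fold and 5.21-fold from those of subclones 2, 3 and 6. Lif was at 6.57, 6.83 and 6.75 in subclone 24, against 8.50, 8.30 and 8.36 in subclone 2, 8.47, 8.28 and 8.35 in subclone 3 and 8.61 and 8.62 in subclone 6. Here the trio was nearly level, and subclone 24 lay 3.14- to 3.73-fold below it. A second, dimmer probe set of Lif gave a smaller difference of -0.36 from each subclone and from their mean. Itih5 went the other way, at 9.69, 9.77 and 9.73 in subclone 24, against 7.95, 7.96 and 7.99 in subclone 2, 7.93, 8.19 and 8.11 in subclone 3 and 8.40 and 8.49 in subclone 6, again with no overlap. Its differences from subclones 2, 3 and 6 were 1.76, 1.65 and 1.28 log2 units, and another pair of Itih5 probe sets gave differences from the mean of the trio of 0.82 and 1.48.

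Bmp2 did not hold against each subclone. It was at 4.69, 4.58 and 5.19 in subclone 24, against 9.59, 9.62 and 9.44 in subclone 2, 8.75, 8.83 and 8.78 in subclone 3 and 5.36 and 5.11 in subclone 6. Subclones 24 and 6 overlapped, with means of 4.82 ± 0.32 (SD, n = 3) and 5.23 ± 0.17 (SD, n = 2), and both lay under the lowest array median of 5.83. Its difference was -3.04 from the mean of the trio, -4.73 and -3.96 from subclones 2 and 3, and -0.41 from subclone 6. In the remaining subclones Bmp2 averaged 9.44 in subclone 28, 8.41 in subclone 18, 7.57 in subclone 19 and 4.59 in subclone 23.

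**Figure D1:**
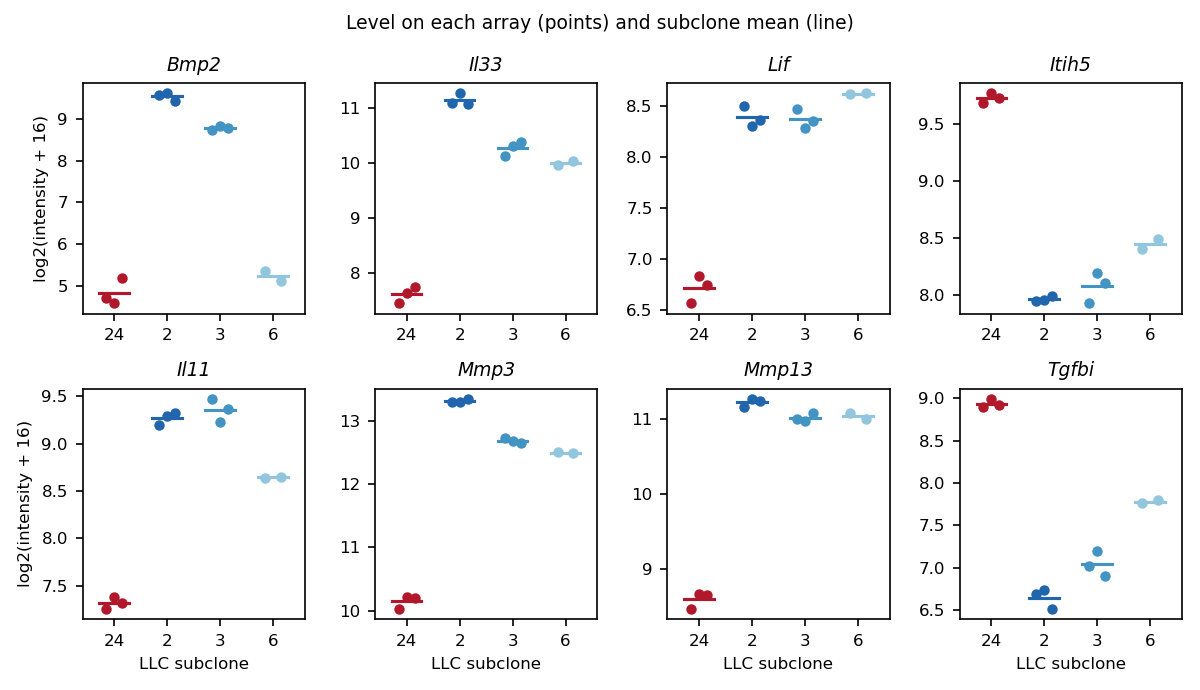
Level of 8 genes, as log2(intensity + 16), on each array (points) with the subclone mean (line) for subclones 24, 2, 3 and 6. Subclone 24 is apart from all 3 others for each gene except Bmp2, where its arrays (4.58 to 5.19) overlap those of subclone 6 (5.11 and 5.36).

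Against the mean of the trio, 40 genes were higher in subclone 24 (0.22% of those tested) and 131 were lower (0.72%). The numbers higher and lower were 123 (0.676%) and 155 (0.852%) against subclone 2, 103 (0.566%) and 224 (1.23%) against subclone 3, and 32 (0.176%) and 166 (0.912%) against subclone 6. Called genes were thus more often lower than higher in subclone 24 in every comparison. Against each of the 3, 14 genes held higher (0.077%) and 58 held lower (0.319%), so 26 of the 40 higher and 73 of the 131 lower genes of the mean contrast did not hold. Among these, 18 of the higher ones were not called against subclone 6, and 39 of the lower ones were not called against subclone 2. Without the minimum of 1 log2 unit, 3131 genes (17.2%) were higher and 3394 (18.7%) lower than the mean. All arrays of subclone 24 lay above the 8 arrays of the trio for 1853 genes (10.2%) and below them for 1945 (10.7%). The count that held was 127 with a pseudocount of 1 and 38 with one of 64 in place of 72, and with subclone means as the unit (1 mean against 3) limma called 3 genes against the mean, all lower.

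Tesc, which encodes the calcium-binding protein tescalcin, was at 8.83, 8.91 and 8.95 in subclone 24, against 7.62, 7.49 and 7.59 in subclone 2, 7.05, 7.24 and 6.99 in subclone 3 and 6.76 and 6.49 in subclone 6. It rose 3.48-fold over the mean of the trio (1.80 ± 0.091 SE, limma adjusted p = 3.85e-11). Tgfbi, a matrix protein induced by TGF-beta, was at 8.90, 8.99 and 8.92 in subclone 24, against 6.52 to 7.20 in subclones 2 and 3 and 7.76 and 7.80 in subclone 6. It rose 3.43-fold over the mean (1.78 ± 0.055 SE, limma adjusted p = 4.92e-14), least against subclone 6 at 1.16 log2 units. Other Tgfbi probe sets gave differences from the mean of 1.80, 1.78 and 0.17, the last without passing adjusted p. Prss23, a secreted serine protease, had the largest smallest difference of the higher genes, rising by 1.87, 1.56 and 1.69 log2 units against subclones 2, 3 and 6.

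P2ry14, a receptor for UDP-sugars, was at 6.63, 6.70 and 6.58 in subclone 24 and at 4.26 to 5.46 on the arrays of the trio, where it lay below the lowest array median. The other higher genes by the size of their smallest difference were Fam124a, AW112010, Ccdc191, Zkscan16, the kinase gene Sgk2, the chaperone gene Dnajc25 and the mitochondrial gene Opa3. Ecpas, which encodes a proteasome adaptor, and Gbp2, a GTPase gene induced by interferon, completed the 14. Differences from the mean of the trio ran between 1.13 (Opa3) and 1.80 (Tesc), and the highest limma adjusted p against any of the 3 subclones was 0.000241.

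Of the lower genes, 3110039M20Rik differed by nearly the same amount from each subclone. It was at 4.62, 4.46 and 4.42 in subclone 24 and between 7.77 and 7.99 on all 8 arrays of the trio, a fall of 3.32, 3.41 and 3.34 log2 units against subclones 2, 3 and 6. Tmem45a, a gene for a membrane protein, fell 12.2-fold below the mean of the trio (-3.61 ± 0.077 SE, limma adjusted p = 6.71e-16), with arrays at 4.98, 5.14 and 5.04 in subclone 24 and at 8.24 to 8.85 in the trio. Both genes lay under the lowest array median in subclone 24, so these falls have no firm lower end.

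Dock4, which encodes an activator of small GTPases, was at 5.86, 6.01 and 6.14 in subclone 24 and at 8.41 to 9.27 in the trio (-2.90 ± 0.064 SE, limma adjusted p = 7.8e-16). Dimmer Dock4 probe sets gave smaller differences from the mean, -1.07, -0.77, -0.24 and -0.14, of which -0.24 and -0.14 did not pass adjusted p. Crip1, a LIM domain gene, was 2.82 log2 units lower than the mean and Atp6v0e2, a gene of the vacuolar proton pump, 2.66 units lower. Tmem88, an inhibitor of Wnt signalling, fell by 2.01 units and Tram1l1, related to a protein of the translocation channel of the endoplasmic reticulum, by 2.23. Other genes that held lower included the transcription factor gene Tfap2c (-2.04), the oestrogen receptor gene Esr1 (-1.45) and Ptgs2, the inducible cyclooxygenase (-1.24). These 3 were named after their values had been seen. Their other probe sets gave -0.93 and -0.35 for Tfap2c, -1.42 and -0.02 for Esr1 and -2.38 for Ptgs2. Of these, -0.35 and -0.02 did not pass adjusted p.

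**Figure D2:**
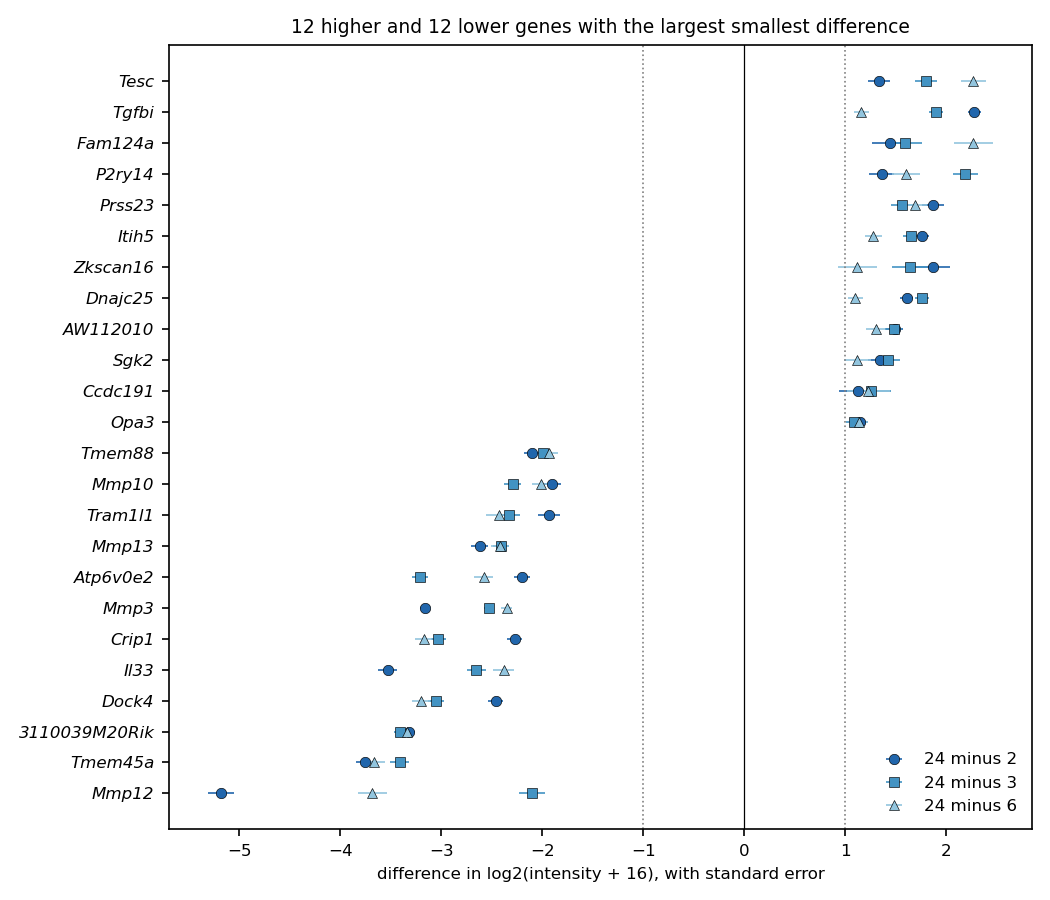
Difference in log2(intensity + 16) of subclone 24 from subclone 2 (circles), 3 (squares) and 6 (triangles), with its standard error, for 12 genes that held higher and 12 that held lower. Mmp12 shows the widest spread between the 3 comparisons (-5.18, -2.10 and -3.68), while 3110039M20Rik lies between -3.41 and -3.32 in all of them.

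At the threshold, Isg20 and Gsta3 were just inside, with smallest differences of 1.004 and 1.009 log2 units. Fam162a and Casp1 were just outside, at 0.992 and 0.991.

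A run of neighbouring matrix metalloproteinase genes on chromosome 9 was lower in subclone 24. These enzymes cut collagens and other matrix proteins and are secreted as inactive precursors. The collagenase gene Mmp13 was at 8.48, 8.68 and 8.66 in subclone 24 and at 10.97 to 11.26 on the arrays of the trio, a 5.60-fold fall (-2.49 ± 0.068 SE, limma adjusted p = 7.74e-15). The stromelysin gene Mmp3 was at 10.03, 10.22 and 10.20 in subclone 24 and at 12.49 to 13.34 in the trio, a 6.41-fold fall (-2.68 ± 0.042 SE, limma adjusted p = 4.38e-18). Neither gene overlapped between subclone 24 and any other subclone of the 4.

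Mmp12, the macrophage elastase gene, was at 5.16, 5.30 and 5.41 in subclone 24 and differed within the trio itself, with means of 10.47, 7.39 and 8.97 in subclones 2, 3 and 6. Mmp10, the second stromelysin, was at 5.73, 5.66 and 5.67 in subclone 24 and at 7.55 to 8.20 in the trio. Mmp1a, an interstitial collagenase, was at 4.50, 4.55 and 4.70 in subclone 24 and at 5.53 to 6.20 in the trio. All 5 held lower against each subclone, and Mmp10, Mmp12 and Mmp1a were below the lowest array median in subclone 24. Mmp1a is named here because it lies in the same run. The run was set by gene name, so other metalloproteinase genes of the region are not covered by it. Of the further genes looked at near it, Dcun1d5 was also lower, by adjusted p against the mean and each subclone. Its difference was smaller (-0.24 log2 units from the mean, limma adjusted p = 4.71e-05). Tmem123, which was not shown to adjoin the run, was at 0.00.

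The 250 bases before the RefSeq start site are shown for the 5 genes (build GRCm38.p6), because these neighbours were low together and each window holds the motif TGAGTCA or its reverse complement TGACTCA, the letters bound by AP-1 factors, given in capitals. For Mmp12, 2 start sites are listed and the window shown is one of them.
Mmp13, chr9:7272264-7272513, plus strand: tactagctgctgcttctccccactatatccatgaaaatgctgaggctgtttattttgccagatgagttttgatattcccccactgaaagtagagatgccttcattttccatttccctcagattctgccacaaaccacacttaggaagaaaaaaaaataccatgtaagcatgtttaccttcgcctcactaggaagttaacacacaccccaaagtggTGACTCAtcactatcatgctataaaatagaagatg
Mmp12, chr9:7347124-7347373, plus strand: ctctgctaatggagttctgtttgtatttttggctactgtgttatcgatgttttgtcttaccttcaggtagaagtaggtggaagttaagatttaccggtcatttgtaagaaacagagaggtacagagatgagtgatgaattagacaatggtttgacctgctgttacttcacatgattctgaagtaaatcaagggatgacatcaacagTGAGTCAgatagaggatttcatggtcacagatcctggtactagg
Mmp3, chr9:7445572-7445821, plus strand: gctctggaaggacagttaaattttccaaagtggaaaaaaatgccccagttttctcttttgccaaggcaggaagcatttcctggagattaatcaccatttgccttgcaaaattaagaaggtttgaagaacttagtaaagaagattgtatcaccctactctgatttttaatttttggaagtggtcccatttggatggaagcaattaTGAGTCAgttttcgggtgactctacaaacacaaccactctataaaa
Mmp1a, chr9:7463891-7464140, plus strand: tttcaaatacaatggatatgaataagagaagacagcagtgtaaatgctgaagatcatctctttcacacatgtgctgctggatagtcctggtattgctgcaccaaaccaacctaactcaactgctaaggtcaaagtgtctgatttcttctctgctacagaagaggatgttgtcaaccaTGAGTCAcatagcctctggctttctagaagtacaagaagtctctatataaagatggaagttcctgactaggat
Mmp10, chr9:7502092-7502341, plus strand: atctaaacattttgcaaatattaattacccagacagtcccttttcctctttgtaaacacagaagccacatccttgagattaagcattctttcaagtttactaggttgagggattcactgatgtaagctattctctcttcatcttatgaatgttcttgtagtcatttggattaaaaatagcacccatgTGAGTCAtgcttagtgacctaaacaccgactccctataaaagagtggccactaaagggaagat
Both strands were searched, the motif and its complement being the same site. It was present in 4.46% of 32851 windows of this length in the table and in the windows of 4.73% of 14452 genes tested. Of the genes that held, 60 had a window, and the motif was in 8 of 49 lower and 4 of 11 higher ones. The 12 were AA467197, Ecpas, Gbp2, Il11, Lif, Mmp10, Mmp12, Mmp13, Mmp1a, Mmp3, P2ry14 and Prss23. A match describes letters in the window and not a bound site.

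The protease and inhibitor list, which includes genes of the run, had 42 measured members, of which 6 were higher and 22 lower at adjusted p alone (background 17.2% and 18.7%), with a median of -0.20 against -0.02 over all genes. Of these 42, 13 were lower against each of the 3 subclones (7.81% of all genes were) and 7 held by the full criterion. The 3 held members outside the run were Slpi, the secretory leukocyte protease inhibitor, Plau, the urokinase plasminogen activator, and Ctsh, a cathepsin. Slpi was at 9.12, 9.14 and 9.14 in subclone 24 and at 10.81 to 11.09 in the trio. Plau was at 8.89, 9.22 and 9.13 in subclone 24 and at 10.57 to 10.86 in the trio. The low group thus held an inhibitor beside the proteases.

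Among BMP and activin genes, 52 of 56 listed were measured and 9 were higher and 12 lower than the mean, near the 17.2% and 18.7% of all genes, with a median of -0.08. Of the 14 genes listed as ligands, the 1 that was higher, Bmp1 at 0.24, encodes a procollagen protease despite its name, and besides Bmp2 the lower ones were Inhbb, an activin and inhibin subunit (-0.86), and Bmp6 (-0.38). Grem1, the antagonist gremlin, held lower against each subclone, at 9.08, 9.24 and 9.35 in subclone 24 and at 10.40 to 11.11 in the trio (-1.58 ± 0.055 SE, limma adjusted p = 2.34e-13). Of the other antagonists Fstl3 and Fstl1 were lower by 0.90 and 0.89 log2 units against the mean and between 0.70 and 1.09 against each subclone. Fst, which binds activin, was 2.65 log2 units lower than in subclone 3 but 0.60 higher than in subclone 2, so its difference of -0.84 from the mean of the trio did not share 1 direction.

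Receptors and Smads differed by less than 0.6 log2 units from the mean of the trio. Of 9 receptors 3 were higher and 1 lower, and of 8 signal transducers 4 were higher, led by Smad3 at 0.57, and 2 lower. Over all genes 17.2% were higher and 18.7% lower by adjusted p, and these groups are small. The BMP target gene Id1 was 0.82 log2 units lower than in subclone 2, against differences of -0.13 and -0.02 from subclones 3 and 6. Id3 was 1.11 units lower than in subclone 2 but 0.27 and 0.36 units higher than in subclones 3 and 6.

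Among gp130 genes, 24 of 29 listed were measured, and 4 were higher and 6 lower than the mean, against 17.2% and 18.7% of all genes. Il11, a ligand of this family, was at 7.26, 7.38 and 7.32 in subclone 24, against 9.20, 9.29 and 9.32 in subclone 2, 9.47, 9.23 and 9.37 in subclone 3 and 8.64 and 8.65 in subclone 6. It held lower against each, as Lif did, with a difference of -1.77 ± 0.072 SE from the mean (limma adjusted p = 2.18e-12). Il6 itself was at 4.42 to 4.85 in subclone 24 and at 4.85 to 5.39 in the trio, all below the lowest array median. The window before the start of Lif, and of 1 of the 2 listed starts of Il11, also holds the AP-1 letters.
Lif, chr11:4257318-4257567, plus strand: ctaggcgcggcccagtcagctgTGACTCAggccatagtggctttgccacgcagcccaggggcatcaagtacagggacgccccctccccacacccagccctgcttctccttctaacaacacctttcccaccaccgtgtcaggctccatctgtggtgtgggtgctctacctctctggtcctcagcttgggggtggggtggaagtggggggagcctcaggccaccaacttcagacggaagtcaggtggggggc
Il11, chr7:4778142-4778391, minus strand: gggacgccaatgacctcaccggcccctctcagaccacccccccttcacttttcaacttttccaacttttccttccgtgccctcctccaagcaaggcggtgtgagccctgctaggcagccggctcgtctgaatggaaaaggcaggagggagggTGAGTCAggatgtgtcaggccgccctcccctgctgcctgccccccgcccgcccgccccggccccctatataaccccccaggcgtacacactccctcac
Of 5 receptors measured, 2 were higher than the mean of the trio and 1 was lower (17.2% and 18.7% of all genes were). Il6ra, the interleukin-6 receptor chain, was 0.91 log2 units higher than the mean, by 0.59, 1.38 and 0.75 against subclones 2, 3 and 6. Il6st, which encodes gp130, was 0.27 higher, and Lifr was between 4.25 and 4.42 in subclone 24 and 4.09 and 4.63 in the trio. The oncostatin receptor gene Osmr was lower, by 0.83 units against the mean (limma adjusted p = 8.64e-10), with differences of -1.79, -0.05 and -0.66 from subclones 2, 3 and 6. The target genes called against the mean were Socs2 (-1.76), a suppressor of cytokine signalling, and Cebpd (-1.01), a transcription factor gene. Neither held against each by the full criterion, with smallest differences of 0.82 and 0.72.

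The list of the interleukin-1 and interleukin-33 family also holds Tslp, which is not a member of that family. In it, 19 of 21 listed genes were measured, 4 of them higher and 7 lower (17.2% and 18.7% of all genes were). The lower ones include Il33, picked for its values. Besides Il33, Il18rap, an accessory chain of the interleukin-18 receptor, held lower at 8.86, 8.96 and 8.94 in subclone 24 and 10.10 to 10.33 in the trio (-1.26 ± 0.052 SE, limma adjusted p = 2.43e-12). Tslp, an alarmin cytokine, was at 5.41, 5.16 and 5.15 in subclone 24 and at 5.79 to 7.25 in the trio, without reaching 1 log2 unit against subclone 3 (-0.77). The shared receptor chain Il1rap was 0.76 units lower and the decoy receptor Il1r2 0.88 lower, whereas the adaptor Myd88 and the kinase Irak2 were 0.32 and 0.44 higher.

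Of 23 measured hyaluronan genes, 3 were higher and 4 lower, against 17.2% and 18.7% of all genes. Apart from Itih5, the 5 other inter-alpha-trypsin inhibitor genes measured lay between -0.14 and 0.04 log2 units. The hyaluronan synthase gene Has2 was lower by 0.99, 0.74 and 0.63 against subclones 2, 3 and 6. The hyaluronidase-like gene Cemip fell by 1.90 and 0.86 against subclones 2 and 6, with a difference of -0.24 from subclone 3. Cd44, the main hyaluronan receptor, was at 12.59, 12.60 and 12.60 in subclone 24 and at 12.52 to 12.77 in the trio.

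Hypoxia and glycolysis genes had the lowest median of the 29 gene lists. These genes are targets of HIF factors and serve glucose use at low oxygen. Of 32 measured, 27 were lower and 0 higher than the mean, with a median of -0.52 against -0.02 over all genes, and 21 were lower against each subclone (18.7% of all genes were lower than the mean and 7.81% lower against each). Adm, which encodes the vasoactive peptide adrenomedullin, was at 9.53, 9.64 and 9.83 in subclone 24 and at 11.13 to 11.52 in the trio. Ero1a, an oxidase of the endoplasmic reticulum, was at 11.04, 11.23 and 11.22 in subclone 24 and at 12.40 to 12.90 in the trio. Both held lower, as did Ankrd37, which was at 6.98 to 7.30 in subclone 24 and 8.09 to 8.87 in the trio. The median was -0.55 against subclone 2, -0.31 against subclone 3 and -0.60 against subclone 6.

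Of 26 measured targets of NRF2, the factor that governs antioxidant genes, 15 fell and 3 rose, with a median of -0.32, and 13 were lower against each. Over all genes 18.7% fell, 17.2% rose and 7.81% were lower against each. Cbr3, a carbonyl reductase gene, fell by 1.61 log2 units and the glutathione transferase gene Gsta3 by 1.58. Hmox1, the heme oxygenase gene, was at 7.11, 7.34 and 7.57 in subclone 24 and at 8.40 to 8.96 in the trio. All 3 held. Among 24 genes of ERK output 15 fell and 1 rose, with medians of -0.24, -0.23 and -0.22 against subclones 2, 3 and 6. Hbegf, an EGF receptor ligand, and Egr1, an immediate early factor, led it at -1.05 and -0.99, and neither held by the full criterion.

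Of 38 measured secreted or released factors with reported roles in cachexia or on adipocytes, 18 were lower and 2 higher, 12 were lower against each, and 5 held (18.7%, 17.2%, 7.81% and, for those that held lower, 0.319% of all genes). They were Il33 and Lif, both picked for their values in this contrast, and Il11, Adm and Apln, the gene of the peptide apelin, which was at 7.79, 7.96 and 8.05 in subclone 24 and at 9.16 to 9.61 in the trio. This list and the others were assembled with earlier results of these data known, so their directions are not independent evidence.

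Interferon-stimulated genes went up in 16 of 37 and down in 4 (17.2% and 18.7% of all genes did), and 11 were higher against each subclone (6.63% of all genes were). Gbp2 was at 7.17, 7.41 and 7.29 in subclone 24 and at 5.47 to 6.35 in the trio. The transcription factor gene Irf1 rose by 0.77, 1.43 and 0.73 log2 units against subclones 2, 3 and 6. Isg20, an exonuclease gene of the same list, held lower, with falls of 1.00, 1.02 and 1.24. In the MHC class I list, of 17 measured, 7 were higher and 6 lower than the mean, with Psmb10, an immunoproteasome subunit, up by 1.03 and the regulator Nlrc5 down by 0.83.

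Other lists changed with the subclone chosen for comparison. Proliferation genes were higher than the mean in 34 of 44 (17.2% of all genes were). Their median was 0.79 against subclone 2, but 0.04 against subclone 3 and 0.01 against subclone 6. Of the 44, 5 were higher against each subclone (6.63% of all genes were). Cdc20, an activator of the anaphase-promoting complex, was 1.37 log2 units higher than in subclone 2, and 0.45 and 0.36 higher than in subclones 3 and 6. Mki67 was at 10.97, 10.78 and 10.87 in subclone 24, against 9.63, 9.53 and 9.83 in subclone 2, 10.80, 10.78 and 10.67 in subclone 3 and 10.86 and 10.85 in subclone 6. Genes of sterol and fatty acid synthesis turned in sign, with 16 of 31 higher than in subclone 2 (median 0.23) and 17 and 18 lower than in subclones 3 and 6 (medians -0.29 and -0.29). Over all genes, 17.6%, 17.4% and 11.2% were higher against subclones 2, 3 and 6 by adjusted p, and 16.6%, 19.6% and 15.2% were lower.

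**Figure D3:**
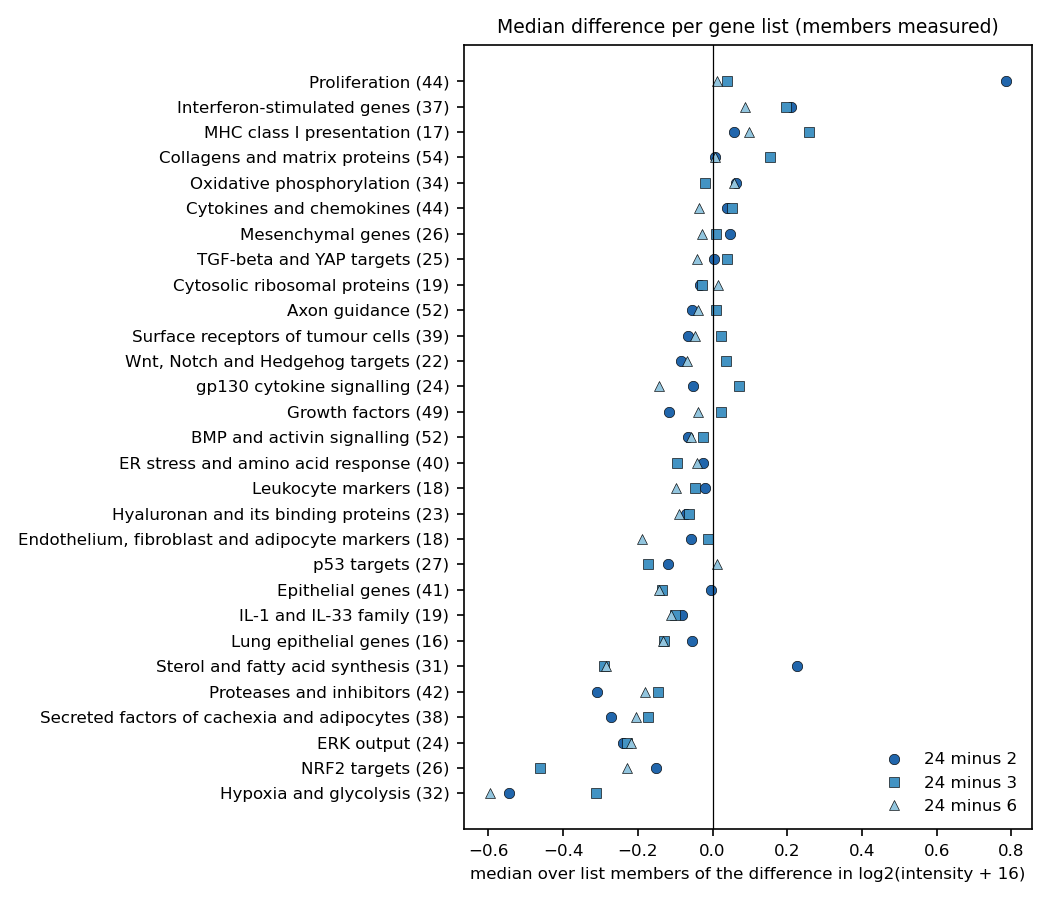
Median over the measured members of each gene list (number in brackets) of the difference in log2(intensity + 16) of subclone 24 from subclone 2 (circles), 3 (squares) and 6 (triangles). Hypoxia and glycolysis lies below -0.3 in all 3 comparisons, whereas proliferation is at 0.79 against subclone 2 only and sterol synthesis differs in sign.

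Levels in the remaining subclones differed from gene to gene. Of 14 higher genes 11 lay above all 20 other arrays, and of 58 lower genes 20 lay below them. To hold, a gene already had to lie beyond the 8 arrays of the trio, which are part of those 20. The share of all genes beyond all 20 arrays was not counted. Lif was among the 20 lower genes, since its means elsewhere were 9.77 in subclone 28, 7.99 in subclone 18, 8.57 in subclone 19 and 7.88 in subclone 23. The lower genes were nearer to the level of subclone 24 than to that of the trio in 41 cases in subclone 18, 31 in subclone 23, 23 in subclone 19 and 3 in subclone 28. Il33 averaged 7.61 in subclone 24 and 7.50 and 7.56 in subclones 18 and 19. Mmp13 averaged 8.60 in subclone 24 and was lower still in subclones 18, 19 and 23, at 7.28, 6.22 and 7.67.

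Genes of chromosome 16 were lower as a group. Among genes with a mean level of at least 7, 286 lie on this chromosome, and 83.2% of them had a difference below 0, against 48.9% of all 8917 such genes. Their median was -0.22, -0.23 and -0.20 against subclones 2, 3 and 6, against 0.01, -0.01 and 0.00 over all chromosomes. Each array of subclone 24 had a chromosome median of -0.225 to -0.201 relative to the trio, while the arrays of the trio lay between -0.035 and 0.029. Chromosome 10 had a median of -0.17 and chromosome 12 of -0.16, and chromosomes 11 and 19 lay at 0.11 and 0.14. On chromosome 16 subclone 19 was also low (-0.11 to -0.098), whereas subclones 18, 23 and 28 lay above the trio. Subclones 18, 19, 23 and 28 lay above the trio on chromosome 10. On chromosome 12 subclones 19, 23 and 28 (-0.185 to -0.134) were about as low as subclone 24. Subclone 23 was as high on chromosome 19 (0.144 to 0.2), and subclone 19 was higher on chromosome 11 (0.157 to 0.175). The 58 lower genes of 18193 tested included 8 of the 622 on chromosome 12, among them Dock4, Crip1 and 3110039M20Rik, and 8 of 1002 on chromosome 9. They also included 6 of 1399 on chromosome 2, 5 of 593 on chromosome 16 and 5 of 992 on chromosome 6.

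**Figure D4:**
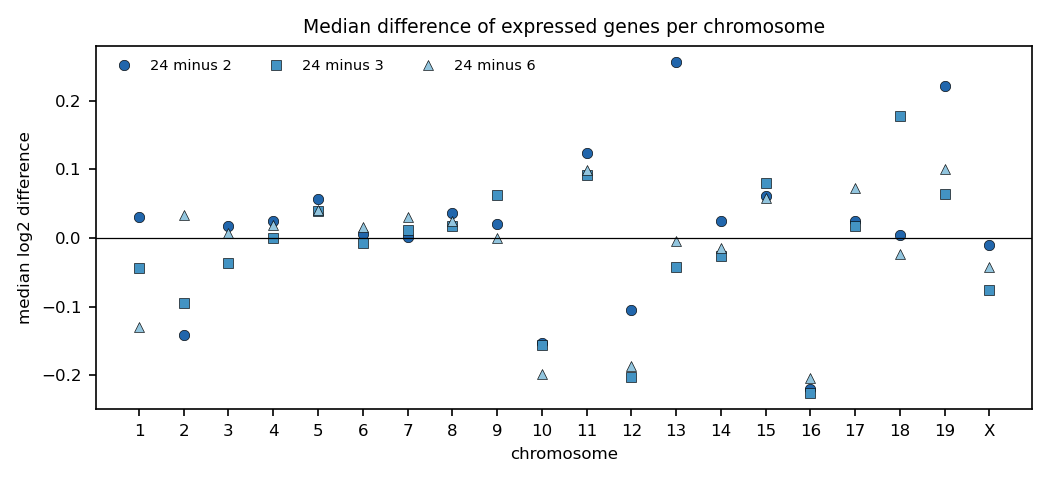
Median difference in log2(intensity + 16) of subclone 24 from subclone 2 (circles), 3 (squares) and 6 (triangles) over genes with a mean level of at least 7, by chromosome. Chromosome 16 lies at -0.22, -0.23 and -0.20, while chromosome 13 differs between comparisons, at 0.26, -0.04 and 0.00.

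On chromosome 4, 11 of 13 neighbouring genes from Ecpas to Snx30 were higher in subclone 24. The run was chosen after its values had been seen, and it was the highest point of a moving median over 15 genes, 0.60 at Ptgr1. The 11 were higher by adjusted p against each of the 3 subclones, as were 6.63% of all genes. They also lay above all 20 other arrays of the series, a share not counted over all genes. Their differences were 0.60 to 1.54 log2 units from the mean of the trio. Ecpas was at 11.63, 11.61 and 11.72 in subclone 24 and at 10.28 to 10.64 in the trio. Ugcg, the enzyme gene of glucosylceramide synthesis, was 0.84 higher than the mean and Gng10, a G protein subunit gene, 0.60. The other members, Gm12596 and Susd1, did not pass the test, at -0.05 and 0.25. Their mean levels over all arrays were 5.49 and 4.90. Zkscan16, one of the 11, had a mean level of 5.52, close to that of Gm12596. Only Ecpas, Zkscan16 and Dnajc25 reached 1 log2 unit against each. Outside the run, Lpar1 on one side was at -0.04. On the other, Slc46a2, next to Snx30 and of low level, was lower by 0.50 log2 units (limma adjusted p = 0.00014) with all arrays of subclone 24 below the trio, and Zfp37 was at 0.16.

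**Figure D5:**
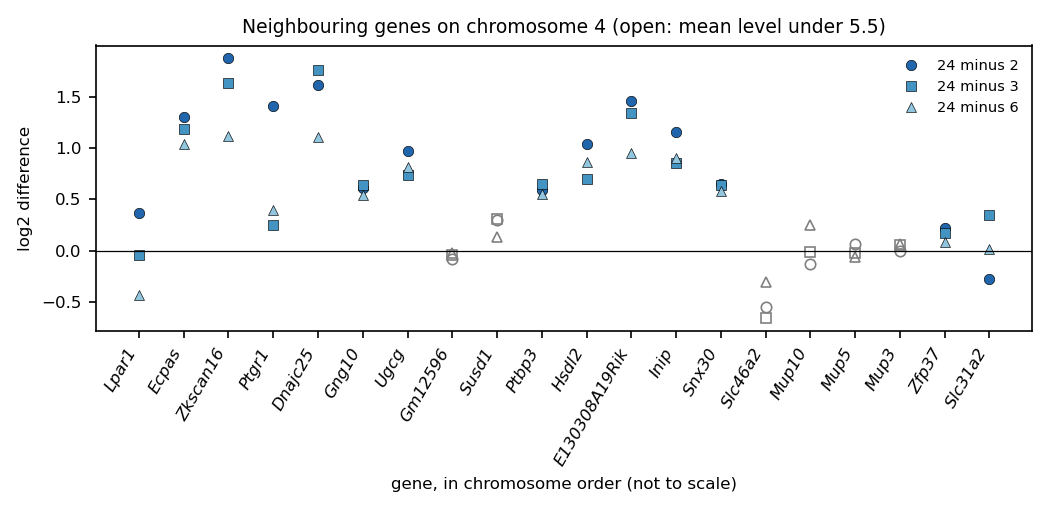
Difference in log2(intensity + 16) of subclone 24 from subclones 2 (circles), 3 (squares) and 6 (triangles) for neighbouring genes of chromosome 4, in order and not to scale. Filled points are genes with a mean level of at least 5.5, and the genes from Ecpas to Snx30 other than Gm12596 are above 0 in all 3 comparisons.

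A second probe set was present for some of the 72 genes that held. There were 55 others for 32 of the genes, of which 53 had the same sign as the probe set used and 40 also passed adjusted p, with 0 opposite in sign past it. Those opposite in sign were the other probe sets of Ccdc191, at -0.07 and -0.16 from the mean of the trio. Of 33 with a mean level of at least 6, 32 had the same sign. A subclone mean below the lowest array median occurred for 7 of the 14 higher and 16 of the 58 lower genes, so the size of those differences is less firm than their direction.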

How the data were processed

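Total RNA was biotin-labelled and hybridised to Affymetrix arrays, per the labels' protocols. The authors deposited 1 linear intensity per probe set and array, from 0.61 to 17068.52, and no source used here states the algorithm or scaling behind them. No detection calls were used. Of 45101 probe sets, 64 control ones were left out, 34945 had 1 gene symbol in the platform annotation, 932 had several and 9160 were not listed there and went untested. Symbols were updated by Entrez identifier for 34741 probe sets through RefSeq (GRCm38.p6), which also gave chromosomes, gene order and promoters. The probe set with the highest mean represented each of 18193 genes (9010 had more than 1), as log2(intensity + 16), with no filter on low values.

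All 23 arrays entered a single linear model with a mean for every subclone, which left 15 residual degrees of freedom. It was run in R 4.3.3 through lmFit and eBayes of limma 3.58.1, with Benjamini-Hochberg adjustment over all genes, and was tested on simulated data. For list members the bar was an adjusted p under 0.05, whatever the size. The members, the subclones compared and the 29 gene lists were chosen with earlier results of these data known. Genes named are the 4 markers, the 12 higher and 12 lower genes with the largest smallest difference, up to 4 members per list by size of difference, all called members of the lists that hold a marker, and the pairs nearest the threshold. Others were named after their values were seen.

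Deviations of same-numbered arrays correlated at -0.159 to 0.187 (15 pairs) and those of other-numbered arrays at -0.187 to 0.159 (30 pairs). Deviations were taken from the mean of each subclone, so these correlations depend on one another. They cannot settle whether replicate numbers pair the arrays. Alternatives covered the pseudocount, a floor, normalization, a filter, the probe set rule, the samples, weights, the unit of replication, the replicate number as a block and each array left out. The number of arrays limits the precision.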

Additional observations from a re-analysis of the deposited data

How the results depend on the processing

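The pseudocount moved the counts both ways. With log2(value + 1), 84 genes were higher and 307 lower than the mean of the trio (391 in all), 230 and 301 against subclone 2 (531), 200 and 422 against subclone 3 (622) and 93 and 356 against subclone 6 (449), and 127 held against each, 106 of them lower, including all 72 of the reported ones. With log2(value + 64), the counts were 17 and 63 (80), 51 and 96 (147), 48 and 118 (166), and 14 and 84 (98), and 38 held, 6 higher and 32 lower, all among the 72. A filter on low values left 21 higher against subclone 6 and 9 that held higher. The mean of all probe sets of a gene gave 76 higher against subclone 2, 63 higher against subclone 3 and 9 that held higher.

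With subclone means as the unit (1 mean against 3), limma called 3 genes, 0 higher and 3 lower, since that fit leaves few degrees of freedom. With the replicate number as a replicate block, 174 genes were called against the mean of the trio in place of 171, and the same 72 held against each. Leaving out each array in turn gave 157 to 183 genes against the mean (37 to 42 higher, 116 to 142 lower), 272 to 290 against subclone 2 (116 to 140, 150 to 164), 315 to 363 against subclone 3 (103 to 123, 203 to 240) and 193 to 226 against subclone 6 (32 to 50, 157 to 194). The 50 came without replicate 1 of subclone 6, which leaves that subclone 1 array assumed to vary like the other groups. Between 70 and 80 held against each (13 to 17 higher, 53 to 65 lower).

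Over 124 named genes, 2677 of 2829 values kept their direction and their side of the adjusted p threshold, whatever the size of the difference. Another 149 no longer passed adjusted p, 121 of them with subclone means as the unit, and 3 reversed. Grhl2 turned to -0.06 with the mean of all probe sets and to -0.37 with the most variable one, and Sdha to -0.20 with the most variable one. The cause was not tested. The tally left out the minimum of 1 log2 unit, so it does not show how calls of named genes depend on the pseudocount. With log2(value + 64), genes called against the mean fell from 171 to 80, and those that held from 72 to 38. No setting moved the median of all genes by over 0.1 log2 units, and genes near the floor have no firm fold.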
